A study of Mus musculus with 30 samples.

Results

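Adipose tissue macrophages (ATMs) of obese mice given a GLP-1 receptor (GLP-1R) agonist together with an anti-IL-17A antibody (Combo) were compared with ATMs of vehicle-treated mice (Vehicle) by RNA-seq. The comparison was defined by the sample labels alone: the 3 Combo and the 3 Vehicle ATM libraries, 6 of the 30 samples of the series, over all 17059 genes of the ATM count table. The other 9 ATM libraries, 3 each from wild-type (WT) controls, mice given the agonist alone (GLP1RA) and mice given the antibody alone (antiIL17A), entered the same statistical model and are quoted only where they place the Combo values. The single-agent mice were transplanted and dosed as described next for Combo, with 1 agent in place of both. WT recipients were irradiated at the same doses, and the labels of the WT samples name neither donor cells nor a treatment.

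Recipients in both groups were leptin-deficient Ob/Ob mice on a C57BL/6J background, which become obese because they lack the satiety hormone leptin. They were lethally irradiated with 700 cGy plus 400 cGy and given equal numbers of CD45.2+ marrow cells from Shp2E76K/+;LysM-Cre+ mice and of CD45.1+ Boy/J competitor cells. LysM-Cre acts in myeloid cells, where it switches on the activating E76K form of the phosphatase Shp2, and the competitor cells and any surviving host macrophages did not carry it. Treatment began 8 weeks after transplantation and ran for 30 days, with Vehicle or with beinaglutide, the GLP-1R agonist, at 3 mg/kg s.c. plus the anti-IL-17A antibody at 200 µg per mouse i.p. given 3 times a week. The protocol gives an age of 12 to 14 weeks, mice of both sexes and 3 mice per group, and all samples carry the same batch label. The study's methods give a slightly younger age for recipients at irradiation and none at harvest. The 12 to 14 weeks are therefore not taken as the age at harvest. The macrophages came from visceral fat by sorting on the surface protein F4/80.

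Macrophages are the most numerous immune cells of obese fat. In lean fat they are mostly resident cells that clear debris and carry scavenger receptors such as CD206 (Mrc1), whereas in obesity monocytes enter from the blood and become inflammatory or lipid-laden. IL-17A, a cytokine of Th17 cells, acts through the receptors IL-17RA and IL-17RC and, with TNF, induces chemokines, colony-stimulating factors and IL-6 through NF-kB. GLP-1 is an incretin that raises insulin secretion and lowers appetite. Interferons signal through cell-surface receptors and switch on a shared set of antiviral genes.

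Total counts ran from 27229278 to 30195059 in the Vehicle libraries and from 31854058 to 35092875 in the Combo libraries. Values below are normalized counts, which put every gene's raw count on the scale of an average ATM library (library total times TMM factor), so that libraries but not genes can be compared. The spread between replicates fell with level: for genes above 10000 normalized counts the median coefficient of variation was 3.99% in Vehicle and 2.67% in Combo, and for genes of 10 to 100 it was 73.5% and 49.3%. The F4/80 gene itself, Adgre1 (chr17:57358691-57483527, GRCm38), was present in every library but 9.48-fold higher in Combo. Summed counts of 14 neutrophil genes reached 852431 to 903929 in Vehicle and 466876 to 477476 in Combo against at most 18287 in the other 9 ATM libraries, so both groups held the transcripts of another cell type at high level. Summed counts of 7 erythroid and platelet genes were 223568 to 226889 in Vehicle and 182534 to 187405 in Combo. They were 128850 to 136184 in WT and at most 51293 in GLP1RA and 39656 in antiIL17A. Genes of the exocrine pancreas were counted at high level in Combo and not in Vehicle, as described with their values further on. In bulk samples of this kind, fewer cells of a type and less RNA per cell cannot be told apart.

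Of the 17059 genes, 4496 (26.4%) were called different between Combo and Vehicle at a false discovery rate (FDR, Benjamini-Hochberg) under 0.05 with an absolute log2 fold change above 1. Of these, 2411 (14.1% of all genes) were higher in Combo and 2085 (12.2%) were lower. Counts of called list members in this comparison are to be read beside these shares. A gene described as not called missed at least 1 of these limits, often the fold limit, and its log2 fold change with standard error is given in parentheses. The change exceeded 4-fold for 1124 higher and 980 lower genes, and 16-fold for 432 and 301. In 4178 of the 4496 called genes the 3 Combo libraries did not overlap the 3 Vehicle libraries, as was the case for 8960 genes in all. The balance of directions depended on scaling. TMM factors were 0.814 to 0.827 in Vehicle and 1.09 to 1.10 in Combo, and with library totals alone the median gene moved by 0.41 on the log2 scale and the split became 3935 higher to 1361 lower (74.3% higher against 53.6%). Fold changes below are relative to the median gene, which stood at 0 with TMM.

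**Figure D1:**
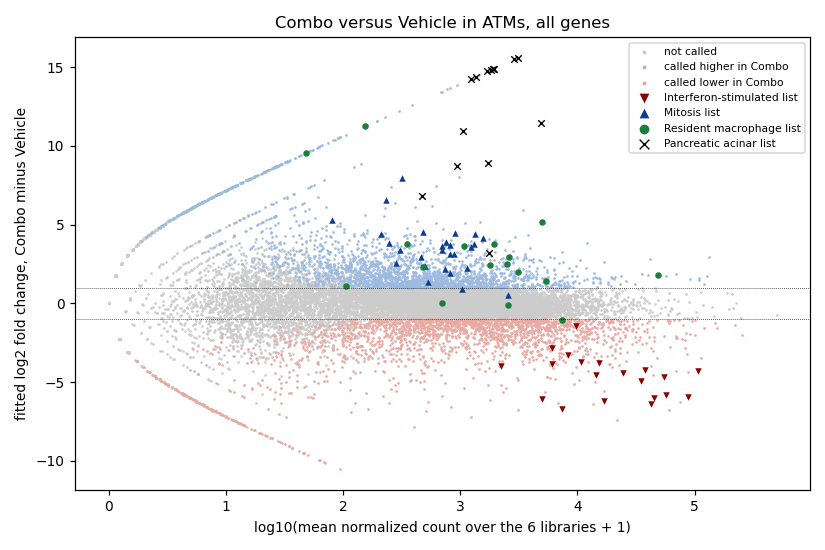
Fitted log2 fold change, Combo minus Vehicle (vertical axis), against the log10 of the mean normalized count over the 6 libraries plus 1 (horizontal axis), with 1 point per gene. Blue and red points were called higher and lower in Combo, dotted lines mark log2 fold changes of 1 and -1, and dark symbols mark 4 gene lists: the interferon-stimulated genes lie below -1, 25 of 27 mitosis genes were called higher, and the pancreatic genes lie at the top, where the fitted value of a gene at 0 in Vehicle depends on the prior count.

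The interferon-stimulated genes had the lowest median of the 49 gene lists examined, and all 20 members measured fell in Combo (20 of 20 called lower, against 12.2% of all genes). The median log2 fold change was -4.49, a level 0.0447-fold that in Vehicle. The letters of the interferon-stimulated response element, which interferon regulatory factors such as IRF9 bind, stand in many of their promoters, and 4 such promoters are shown here because these genes had the lowest median. The promoter of the interferon-induced chemokine Cxcl10, which is in the chemokine list, is shown with them because it holds the same letters. The windows are from RefSeq (GRCm38.p6), lie within 250 bases before the start of the gene and are written 5′ to 3′ on the strand of the gene, with matches to its core, GAAA, any 2 bases and GAAA again, on either strand in capitals.
Isg15: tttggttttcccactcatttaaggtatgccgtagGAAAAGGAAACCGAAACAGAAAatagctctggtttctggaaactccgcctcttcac
Ifit1: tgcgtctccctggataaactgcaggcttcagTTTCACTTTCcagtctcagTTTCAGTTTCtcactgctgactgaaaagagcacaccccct
Ifit3: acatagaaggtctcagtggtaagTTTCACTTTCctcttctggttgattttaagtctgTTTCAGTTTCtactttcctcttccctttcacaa
Rsad2: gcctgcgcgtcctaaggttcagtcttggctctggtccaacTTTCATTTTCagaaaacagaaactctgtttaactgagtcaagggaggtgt
Cxcl10: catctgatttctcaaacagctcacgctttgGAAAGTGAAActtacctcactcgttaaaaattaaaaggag
They lie at chr4:156200841-156200930 (-), chr19:34640754-34640843 (+), chr19:34583350-34583439 (+), chr12:26456523-26456612 (-) and chr5:92349063-92349132 (-). The most distant match began 78 bases before the start in Isg15, 104 in Ifit1, 156 in Ifit3, 120 in Rsad2 and 213 in Cxcl10, and the 3 overlapping matches of Isg15 form 1 run. Of the 20 interferon-stimulated genes, 14 had a promoter in the table and 9 of them (64.3%) held the motif, against 821 of 27025 promoters overall (3.04%). The match describes letters and not a bound site.

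Isg15 (chr4:156199424-156200818), a ubiquitin-like protein joined to other proteins during antiviral responses, was counted at 66728, 65172 and 70592 normalized counts in the Vehicle libraries and 2414, 2159 and 2134 in the Combo libraries (log2 fold change -4.92 ± 0.075, FDR 1.31e-16, where ± gives the standard error). Irf7 (chr7:141262706-141266481), a transcription factor that amplifies type I interferon, stood at 174448, 169563 and 174818 in the Vehicle libraries and 2574, 2724 and 3168 in the Combo libraries (log2 fold change -5.94 ± 0.076, FDR 2.80e-17). For Ifit3 (chr19:34583531-34588731), which binds viral RNA together with Ifit1, the values were 85088, 83000.5 and 81421 in the Vehicle libraries and 949, 1099.8 and 925 in the Combo libraries (log2 fold change -6.39 ± 0.092, FDR 8.19e-17). In each of these genes every Vehicle library lay far above every Combo library, and replicates of a group lay close together.

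Rsad2 (viperin), an enzyme that makes a chain-terminating nucleotide, was 19.8-fold lower and Ifit1 25.3-fold lower. Ifi44, an interferon-induced protein, fell 103-fold, Usp18, the protease that removes Isg15 and restrains the interferon receptor, 72.2-fold, and Mx1, an antiviral GTPase, 67.8-fold. Oasl1 and the 2′-5′ oligoadenylate synthases Oas1a, Oas2 and Oas3 fell 65.6-, 14.6-, 15.6- and 7.08-fold. A smaller fall was seen for the signal transducer Stat2 (log2 fold change -2.92 ± 0.14, FDR 4.68e-11). The receptor chains for type II interferon were not called, with log2 fold changes of 0.22 ± 0.057 for Ifngr1 and -0.90 ± 0.083 for Ifngr2. The receptor-bound kinase gene Tyk2 was not called either (0.93 ± 0.15), but it was called higher with library totals (log2 fold change 1.35). Other interferon-inducible genes were among the 12 lowest fold changes: Cxcl11 (150.3-fold lower), the tryptophan-degrading enzyme gene Ido1 (113-fold) and Ifit3b (85.5-fold), a close copy of Ifit3 whose reads may be split between both.

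Genes of MHC class I presentation, which interferon also raises, fell with them: 9 of 12 were called lower and none higher (median -1.56). B2m (chr2:122147686-122153083), the light chain of every class I molecule, stood at 394665, 397277 and 439104 in the Vehicle libraries and 102456, 104756 and 96743 in the Combo libraries (log2 fold change -2.02 ± 0.042, FDR 3.07e-15). The heavy chain genes H2-D1 and H2-K1 fell 2.98- and 2.92-fold, the peptide transporter genes Tap1 and Tap2 3.93- and 3.01-fold, and the immunoproteasome subunits Psmb8, Psmb9 and Psmb10 2.92-, 2.06- and 3.35-fold. Nlrc5, the class I transactivator, was not called (-0.95 ± 0.13). Ifitm3, which blocks viral entry and was among the 6 lower genes with the highest counts, stood at 212823, 194965 and 210102 in the Vehicle libraries and 18474, 18532 and 19167 in the Combo libraries. No Combo library overlapped a Vehicle library in B2m or Ifitm3. The B2m promoter held 1 match to the same core, shown for comparison, at chr2:122147508-122147597 (+), and 1 of 10 class I promoters in the table held it.
B2m: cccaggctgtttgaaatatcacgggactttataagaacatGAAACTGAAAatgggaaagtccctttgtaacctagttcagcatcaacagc

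**Figure D2:**
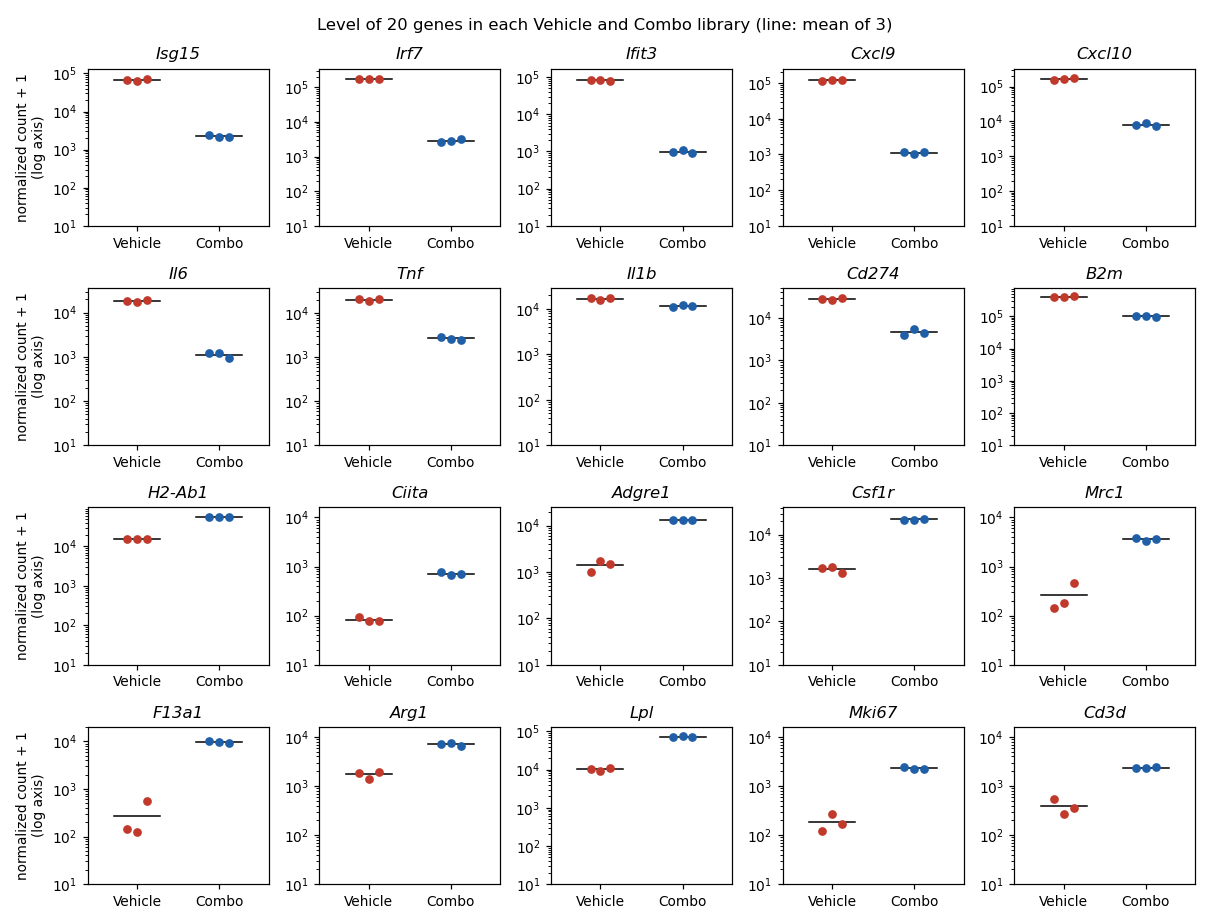
Normalized count plus 1 (log axis) of 20 genes in each of the 3 Vehicle and 3 Combo libraries, with 1 point per library and a line at the mean. Isg15, Irf7, Ifit3, Cxcl9, Cxcl10 and Il6 sit lower in every Combo library, Adgre1, Csf1r, Mrc1, F13a1, Ciita, Mki67 and Cd3d sit higher in every Combo library, and Il1b was not called.

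Most chemokine and cytokine genes were lower in Combo. Among 22 chemokine and chemokine receptor genes 13 were lower and 3 higher, and among 18 inflammatory cytokine and mediator genes 13 were lower and none higher (medians -1.39 and -2.04). Cxcl9 (chr5:92321347-92328079), a ligand of CXCR3 that draws T cells, stood at 113499, 119450 and 126023 in the Vehicle libraries and 1173, 1022 and 1142 in the Combo libraries (log2 fold change -6.75 ± 0.11, FDR 2.14e-16). Its neighbour Cxcl10 (chr5:92346638-92348889), which shares the receptor, stood at 160001, 163330 and 176998 in the Vehicle libraries and 8162, 8786 and 7465 in the Combo libraries (log2 fold change -4.36 ± 0.065, FDR 1.09e-16). Ccl2 (chr11:82035571-82037453), the main chemokine for CCR2+ monocytes, was counted at 131406, 125826 and 140781 in the Vehicle libraries and 6765, 6997 and 6079.9 in the Combo libraries (log2 fold change -4.33 ± 0.056, FDR 2.82e-17). The Vehicle and Combo libraries were separate in all 3 genes.

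Ccl7 and Ccl12, also ligands of CCR2, fell 15.7- and 5.99-fold, the T cell chemokine Ccl5 8.35-fold, and the neutrophil chemokines Cxcl1, Cxcl5 and Cxcl3 8.34-, 4.12- and 3.39-fold. Cxcl2 (-0.93 ± 0.056), Ccl3 (-0.79 ± 0.11) and Cxcl13 (-0.84 ± 0.096) had negative log2 fold changes that were not called. Genes higher in Combo included the stromal chemokine Cxcl12 (3.86-fold) and the macrophage chemokine Ccl6 (2.30-fold). Ccr2, the receptor for Ccl2 on monocytes, which is in the monocyte-derived and not the chemokine list, was higher, at 271, 363 and 325 in the Vehicle libraries and 5249.9, 4439 and 5083 in the Combo libraries (log2 fold change 3.95 ± 0.14, FDR 1.17e-12), while its ligands were lower.

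Il6 (chr5:30013114-30019981), the cytokine that signals through STAT3, stood at 18771, 17119.7 and 19389 in the Vehicle libraries and 1194, 1208 and 962 in the Combo libraries (log2 fold change -4.04 ± 0.087, FDR 4.67e-15). Tnf (chr17:35199381-35202007) stood at 21235, 19207 and 21218 in the Vehicle libraries and 2874, 2682 and 2527 in the Combo libraries (log2 fold change -2.93 ± 0.10, FDR 1.30e-12). The granulocyte factor Csf3 stood at 6743, 6078 and 6533 in the Vehicle libraries and 431, 579.7 and 357 in the Combo libraries (log2 fold change -3.82 ± 0.14, FDR 1.84e-12). Again no Combo library reached a Vehicle library. Csf2 and Csf1, growth factors for macrophages, fell 9.45- and 3.99-fold, Lif and Osm of the IL-6 family 5.67- and 2.67-fold, the nitric oxide synthase gene Nos2 4.28-fold and the acute-phase gene Saa3 4.26-fold. Il23a, the subunit that gives IL-23 its specificity, stood at 358, 279 and 198 in the Vehicle libraries and 20.7, 45.1 and 0 in the Combo libraries (log2 fold change -3.65 ± 1.25, FDR 0.0244), and its call was lost when Vehicle replicate 1 or Combo replicate 1 was left out. Il1b, the inflammasome cytokine, was not called: it stood at 17078, 15737 and 17621 in the Vehicle libraries and 11231, 12082 and 11461 in the Combo libraries (log2 fold change -0.54 ± 0.069, FDR 8.38e-06), and Il1a (-0.06 ± 0.26) and Il18 (-0.78 ± 0.31) were not called either.

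Most IL-17 target genes fell: 16 of 20 IL-17 target genes were called lower and none higher (median -1.82). Of 18 ligand, receptor and adaptor genes 3 were called lower (median -0.75), a share near the 12.2% of all genes called lower. Besides Ccl2, Ccl7, Il6, Csf3 and Cxcl1, the lower targets included the iron-binding lipocalin Lcn2 (4.76-fold), the collagenase Mmp13 (5.75-fold), the AP-1 subunit Fosl1 (11.2-fold, 57.2% of exon bases shared with another gene), the cyclooxygenase gene Ptgs2 (2.48-fold) and the transcription factors Cebpb and Cebpd (3.01- and 2.35-fold). Lcn2, S100a8 and S100a9 are also abundant neutrophil products, and S100a8 stood at 329581, 306939 and 318196 in the Vehicle libraries and 121618, 124017 and 119394 in the Combo libraries (log2 fold change -1.39 ± 0.035, FDR 2.59e-14). With library totals S100a8 and S100a9 were not called (log2 fold changes -0.97 and -0.80).

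Il17a itself was low, at 212, 172 and 278 in the Vehicle libraries and 117, 84.0 and 69.2 in the Combo libraries (log2 fold change -1.29 ± 0.64, FDR 0.112), and not called in the model of all 15 libraries. It was called lower by DESeq2 (log2 fold change -1.31) and in the model of the 6 libraries alone (-1.28). Il17ra and Il17rc, the subunits of its receptor, were 2.23- and 2.17-fold lower, and Tnfaip3 (A20), an inhibitor of NF-kB, was 2.18-fold lower, but none of these 3 was called with library totals (log2 fold changes -0.74, -0.70 and -0.70). The adaptor gene Traf3ip2 (Act1) was at 0.00 ± 0.16 and the adaptor gene Traf6 at -0.54 ± 0.12, and neither was called.

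In the list of TNF and NF-kB genes, 15 of 20 were called lower and none higher (median -1.22). With library totals 9 were called lower. The adhesion molecule genes Vcam1 and Icam1 fell 4.86- and 3.96-fold, and Nfkbia, the inhibitor that NF-kB itself induces, stood at 153165, 137678 and 147723 in the Vehicle libraries and 37572, 37783 and 38339 in the Combo libraries (log2 fold change -1.95 ± 0.037, FDR 1.00e-15), with no overlap. The subunit genes Rela and Relb fell 2.75- and 3.26-fold, whereas Nfkb1 (-0.20 ± 0.17) and Rel (-0.16 ± 0.10) were not called. Tnfrsf1a and Tnfrsf1b, the receptors of TNF, fell 2.32- and 2.03-fold. The promoters of Cxcl1 and Il6 are shown because both are IL-17 targets called lower whose windows hold the match to an NF-kB motif, GGGA, any 1 base and TTTCC, searched on both strands and printed in capitals.
Cxcl1: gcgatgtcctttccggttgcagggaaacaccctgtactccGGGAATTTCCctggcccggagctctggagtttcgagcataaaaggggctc
Il6: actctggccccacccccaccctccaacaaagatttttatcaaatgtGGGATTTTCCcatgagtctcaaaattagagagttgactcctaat
They lie at chr5:90891134-90891223 (+) and chr5:30013024-30013113 (+), with matches that begin 71 and 44 bases before the start. The letters stood in 3 of 12 IL-17 target promoters of the table (Cxcl1, Cxcl2 and Il6), in 1 of 15 TNF and NF-kB promoters, that of Nfkbia, and in 91 of all 27025 (0.337%).

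Of 21 JAK-STAT genes, 6 were called lower and none higher. Among them were Stat2, Stat3 (2.31-fold), Bcl3 (2.10-fold) and the feedback inhibitors Socs1 and Socs2 (2.80- and 3.38-fold). Socs3, the inhibitor induced by STAT3, was not called (-0.04 ± 0.040), nor were Jak1 (0.18 ± 0.049) and Jak2 (-0.77 ± 0.15). Of 19 genes of Ras-ERK signaling and its feedback, the pathway in which Shp2 acts, 1 was higher (Etv5) and 2 were lower (Spry4, 12.1-fold, and Phlda1). Most genes of any kind were not called, with 14.1% of all genes higher and 12.2% lower. Phlda1 was not called with library totals (log2 fold change -0.77). Ptpn11, which encodes Shp2, was at 2289.6, 2263 and 1443 in the Vehicle libraries and 2201, 2096 and 2010.2 in the Combo libraries (log2 fold change 0.07 ± 0.18, not called). The allele is knocked in at this gene, so its count does not report the mutant share. Of 7 genes of incretin, insulin and leptin signaling, the leptin receptor gene Lepr fell 7.26-fold and Irs1 and Dpp4 rose 3.95- and 5.38-fold. Dpp4 encodes the protease that degrades GLP-1 and is also a fibroblast marker. Irs1 lost its call when Combo replicate 1 or 3 was left out, and Glp1r was not in the table used here.

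Most genes that define macrophages were higher in Combo. Of 14 identity genes 8 were called higher and 1 lower (median 1.25). Adgre1 stood at 1002, 1738 and 1471 in the Vehicle libraries and 13434, 13309 and 13111 in the Combo libraries (log2 fold change 3.24 ± 0.14, FDR 1.39e-11). Csf1r, the receptor for the growth factor on which macrophages depend, stood at 1659, 1804 and 1274 in the Vehicle libraries and 22079, 22234 and 22788 in the Combo libraries (log2 fold change 3.82 ± 0.091, FDR 1.48e-14). Lyz2, the lysozyme whose promoter drives LysM-Cre, stood at 30253, 29822 and 32271 in the Vehicle libraries and 238053, 236377 and 234680 in the Combo libraries (log2 fold change 2.94 ± 0.033, FDR 1.08e-17). All 3 were separate between groups, and Lyz2 had the highest count of any gene called higher. The complement genes C1qa and C1qc rose 2.66- and 2.44-fold. Cd68 (0.69 ± 0.040), Cd14 (-0.43 ± 0.052) and Mertk (-0.38 ± 0.15) were not called, and Fcgr1, an Fc receptor that interferon induces, fell 4.36-fold. Beside these values, summed endothelial counts were 155750 to 160848 in Vehicle and 32756 to 36152 in Combo and the neutrophil sums given above were lower in Combo, and the part of either in the result was not tested.

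Resident macrophage genes rose together: 13 of 17 were called higher and 1 lower (median 2.44, against a median of 0 over all genes). Mrc1 (chr2:14229392-14332057), the mannose receptor CD206, stood at 140.3, 178 and 470.0 in the Vehicle libraries and 3901, 3368 and 3609 in the Combo libraries (log2 fold change 3.80 ± 0.28, FDR 1.56e-08). F13a1 (chr13:36867178-37050244), the factor XIII subunit of resident macrophages, stood at 143, 126 and 557 in the Vehicle libraries and 10082, 9509 and 9254 in the Combo libraries (log2 fold change 5.14 ± 0.35, FDR 4.88e-09). Cd209f, a lectin gene, was at 0 in all 3 Vehicle libraries and at 317, 331 and 266 in Combo (at least 70.9-fold higher, FDR 2.31e-11, with 3 counts per library as the floor). The scavenger receptor Cd163 rose 13.5-fold, the ficolin gene Fcna 12.3-fold, Igf1 7.85-fold, the platelet factor gene Pf4 5.58-fold and the transcription factor Maf 5.01-fold. Folr2 rose 3.96-fold, with 63.1% of its exon bases shared with another gene. Lyve1 (-0.00 ± 0.19), Cbr2 (-0.10 ± 0.083) and Timd4 (1.11 ± 0.68), the receptor for dying cells, were not called, and Ccl8 fell 2.13-fold.

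Phagocytic receptors followed a similar course, with 9 of 21 higher and 2 lower (median 0.99), beside 14.1% higher and 12.2% lower over all genes. The scavenger receptor Marco was at 0 in every Vehicle library and at 384, 389 and 397 in Combo (at least 90.7-fold higher, FDR 3.39e-05). Vsig4, a complement receptor of resident macrophages, rose 19.2-fold, the beta-glucan receptor Clec7a 7.38-fold and complement C3 2.75-fold. Itgam and Itgb2, the chains of complement receptor 3, rose 4.14- and 2.96-fold, though 68.7% of the Itgam exon bases are shared with an overlapping gene. The lower receptors were Fcgr1 and Fcgr4 (2.93-fold).

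Lipid-associated macrophage genes, which mark fat-laden cells around dying adipocytes, were higher in 9 of 20 cases and lower in 1 (median 0.72). Among all genes 14.1% were called higher and 12.2% lower. Lpl (chr8:68880491-68907448), the lipase that frees fatty acids from lipoproteins, stood at 10208, 9000.2 and 11119 in the Vehicle libraries and 71787, 73574 and 72856 in the Combo libraries (log2 fold change 2.85 ± 0.055, FDR 1.25e-15). Trem2, the lipid receptor that drives this state, stood at 1866, 1537 and 1341 in the Vehicle libraries and 7392, 7365 and 7457 in the Combo libraries (log2 fold change 2.23 ± 0.083, FDR 3.16e-12). Both were separate between the groups. Itgax (CD11c), the lysosomal lipase gene Lipa, Apoe and Gpnmb rose 6.04-, 5.20-, 3.62- and 3.33-fold, while Cd9 (-0.70 ± 0.051), Spp1 (0.12 ± 0.077) and Cd36 (0.57 ± 0.028) were not called and Fabp4, a fatty acid binding protein also made by adipocytes and endothelium, fell 3.67-fold. The lysosome list held 7 higher genes of 20 and 1 lower (median 0.69), with Psap at 3.33-fold, Gusb at 4.42-fold and Ctsd at 2.32-fold. Npc2, a cholesterol carrier of the lysosome, fell 2.39-fold.

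Monocyte-derived and M2-like genes split. Of 16 monocyte genes 3 were higher (Ccr2, S100a4 and Fn1) and 6 lower, among them Ms4a4c (15.1-fold) and Plac8 (9.07-fold), both interferon-inducible, and Ly6c2 (2.13-fold), the marker of classical monocytes. Of 20 M2-like genes, a list the study partly chose on these samples, 6 were higher and 6 lower. Both lists are to be read beside 14.1% of all genes called higher and 12.2% called lower. Arg1 (chr10:24915221-24927484), the arginase that depletes arginine, stood at 1841, 1409 and 1916 in the Vehicle libraries and 7327, 7546 and 6614 in the Combo libraries (log2 fold change 2.06 ± 0.15, FDR 8.96e-09). Cd274 (chr19:29367455-29388095), which encodes the checkpoint ligand PD-L1, stood at 28737, 27003 and 28856 in the Vehicle libraries and 4060.3, 5368 and 4512 in the Combo libraries (log2 fold change -2.60 ± 0.11, FDR 1.55e-11). The first rose and the second fell, each without overlap. Mgl2 and Mrc1 rose 7.77- and 13.9-fold and the chemokine genes Ccl22 and Ccl17 fell 7.16- and 3.34-fold. Chil3 (0.42 ± 0.099), Il10 (0.13 ± 0.16), Retnla (0.25 ± 0.057) and Nfil3 (-0.69 ± 0.074) were not called.

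MHC class II genes moved against class I: 8 of 10 were called higher and none lower (median 1.64). Ciita (chr16:10480059-10528418), the transactivator of the class II genes, stood at 92.2, 77.8 and 76.3 in the Vehicle libraries and 773, 681 and 699 in the Combo libraries (log2 fold change 3.12 ± 0.23, FDR 1.12e-08). H2-Ab1 (chr17:34257689-34269419), a beta chain, stood at 15599, 15323 and 15657 in the Vehicle libraries and 56948, 54684 and 56655 in the Combo libraries (log2 fold change 1.85 ± 0.027, FDR 8.19e-17). Neither overlapped. The invariant chain gene Cd74 and the alpha chain gene H2-Aa rose 2.98- and 3.13-fold, and H2-DMa and H2-DMb1, which load the peptide, 4.45- and 3.39-fold. These genes are also expressed by B cells and dendritic cells. Summed B cell counts were 3640.2 to 4118 in Vehicle and 6254 to 6645 in Combo, and the dendritic cell list had 4 higher and 3 lower of 14, whose part was not tested.

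Checkpoint and costimulation genes separated into 7 higher and 7 lower of 18, against 14.1% higher and 12.2% lower over all genes. The lower ones are ligands and enzymes that macrophages carry: Lgals9 (galectin-9, 11.1-fold), Cd274, Nt5e (CD73, 4.67-fold), Cd47 (2.08-fold), Cd80 (3.40-fold) and Cd86 (2.04-fold), together with Lag3, an inhibitory receptor of T cells (4.18-fold). The higher ones are largely receptors of T cells: Cd96 (log2 fold change 4.01 ± 0.35, FDR 1.24e-07), Cd28 (6.75-fold), Ctla4 (4.25-fold), Icos (3.79-fold) and Tigit (3.36-fold), with the myeloid receptors Sirpa (3.25-fold) and Cd200r1 (2.09-fold). Pdcd1 (PD-1) was not called (-0.24 ± 0.093). T cell markers rose beside them. Of 15 measured T cell genes 14 were called higher (median 2.75), and their summed counts were 10607 to 11118 in Vehicle and 58360.5 to 58808 in Combo. Cd3d (chr9:44981786-44987339), a subunit of the T cell receptor complex, stood at 534, 269 and 358 in the Vehicle libraries and 2287, 2370.2 and 2405 in the Combo libraries (log2 fold change 2.60 ± 0.19, FDR 9.88e-09). Cd4 and Cd8a rose 9.85- and 16.2-fold, with no Vehicle library reaching a Combo library in Cd3d. The part of the T cell transcripts in the checkpoint values was not tested.

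Genes of cell division were higher in Combo in all 3 lists that cover them. In the mitosis list 25 of 27 were called higher (median 3.60), in the DNA replication list 21 of 28 (median 1.74) and in the homologous recombination list 13 of 20 (median 1.74), against 14.1% of all genes, and none was called lower. Mki67 (chr7:135689784-135716361), the Ki-67 antigen of cycling cells, stood at 123, 272 and 169 in the Vehicle libraries and 2389.5, 2245 and 2198 in the Combo libraries (log2 fold change 3.60 ± 0.24, FDR 4.37e-09). Top2a, the topoisomerase that untangles chromosomes, stood at 172, 178 and 153 in the Vehicle libraries and 2817, 2901 and 3237 in the Combo libraries (log2 fold change 4.15 ± 0.15, FDR 2.22e-12). Bub1 (chr2:127801122-127831865), a checkpoint kinase of the spindle, stood at 0, 7.34 and 0 in the Vehicle libraries and 765, 610.4 and 532 in the Combo libraries (log2 fold change 7.98 ± 0.63, FDR 3.43e-08). The groups were separate in all 3, and Bub1 was nearly absent from Vehicle.

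Other mitotic genes with large rises were Nuf2 (93.1-fold) and Ttk (39.2-fold), both of the kinetochore checkpoint, Kif20a (23.3-fold, 29.3% of exon bases shared), the cyclin gene Ccna2 (21.2-fold) and the mitotic kinase gene Cdk1 (4.45-fold). Ube2c (0.53 ± 0.096) and Tpx2 (0.90 ± 0.21) were not called. In the replication list Pole, the leading-strand polymerase, rose 46.4-fold, the ribonucleotide reductase subunits Rrm2 and Rrm1 10.9- and 6.03-fold, Cdc45 6.38-fold and the helicase genes Mcm2 and Mcm7 3.31- and 5.69-fold. The clamp gene Pcna (0.12 ± 0.065) and the licensing factor Cdt1 (0.06 ± 0.16) were not called. Brca1 and Brca2 rose 4.55- and 5.44-fold from Vehicle means of 52.6 and 29.5 normalized counts, a range in which replicates vary most. Macrophages, T cells and marrow-derived precursors can all divide, and the libraries do not tell which cells the transcripts came from.

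Cell cycle promoters often carry CCAAT boxes, and those of Cdk1 and Ube2c are shown as a called and a not called mitotic gene. The whole 250 bases before the start are given, with CCAAT on either strand in capitals.
Cdk1: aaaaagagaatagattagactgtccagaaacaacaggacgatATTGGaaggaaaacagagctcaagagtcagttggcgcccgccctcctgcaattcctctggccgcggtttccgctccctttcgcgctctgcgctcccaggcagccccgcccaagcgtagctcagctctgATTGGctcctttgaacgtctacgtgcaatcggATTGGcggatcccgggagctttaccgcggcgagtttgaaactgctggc
Ube2c: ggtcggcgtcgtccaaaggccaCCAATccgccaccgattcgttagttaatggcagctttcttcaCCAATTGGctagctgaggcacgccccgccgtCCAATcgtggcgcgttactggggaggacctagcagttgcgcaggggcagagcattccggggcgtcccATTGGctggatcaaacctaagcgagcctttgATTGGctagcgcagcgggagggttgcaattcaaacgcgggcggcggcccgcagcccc
They lie at chr10:69352913-69353162 (-) and chr2:164769679-164769928 (+) and hold 3 and 6 matches, of which those on opposite strands may overlap. Of the mitosis genes, 23 had a promoter in the table and 19 of them (82.6%) held CCAAT, as did 15 of 23 replication genes (65.2%) and 34.5% of all promoters. The letters TTTGAA, of the cell cycle homology region, stood in 7 of 23 mitosis promoters and in 16.3% of all. The not called gene held more CCAAT matches than the called one.

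Of 17 glycolysis genes 5 were lower and none higher, against 12.2% of all genes called lower: the glucose transporter gene Slc2a1 stood at 18181, 19079 and 17864 in the Vehicle libraries and 3544, 3540.4 and 4054 in the Combo libraries (log2 fold change -2.31 ± 0.086, FDR 2.87e-12), the lactate exporter gene Slc16a3 fell 3.15-fold, and Hk1, Hk2 and Pfkl fell 2.65-, 2.58- and 2.39-fold. With library totals 2 glycolysis genes were called lower, and Hk1 and Hk2 were among those not called. Gapdh (-0.75 ± 0.034), Ldha (-0.26 ± 0.038) and Pkm (-0.29 ± 0.036) were not called. Of 16 hypoxia genes 8 were lower and 1 higher (median -0.92), with Ndrg1, the vasodilator peptide gene Adm and Pfkfb3 at 5.90-, 5.11- and 4.05-fold lower and Hif1a, the oxygen-regulated factor, 2.11-fold lower. Pdk1, which keeps pyruvate out of mitochondria, was the higher one (2.53-fold). With library totals 4 hypoxia genes were called lower.

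Fatty acid oxidation genes were called higher in 4 of 20 cases and lower in none (median 0.53), a share to be read against the 14.1% of all genes called higher. Acaa2, the thiolase of the last step, stood at 2026, 2084 and 1559.6 in the Vehicle libraries and 5780.3, 5752 and 5498 in the Combo libraries (log2 fold change 1.59 ± 0.093, FDR 8.51e-10), with no overlap, and Hadh and Acadm rose 2.78- and 2.55-fold. Ppargc1a rose from a Vehicle mean of 3.96 to 35.1 and lost its call without Combo replicate 3, Vehicle replicate 1 or Vehicle replicate 2. The rate-limiting transporter gene Cpt1a (0.54 ± 0.097) was not called, nor were the electron carriers Etfa (0.84 ± 0.069) and Etfb (0.96 ± 0.063), of which both were called with library totals. Of 16 lipogenesis genes 2 were higher (Scd2, 3.30-fold, and Acacb, which lost its call without Combo replicate 3) and 1 lower: Fas, which this list takes from the study and which as a symbol names the death receptor CD95, fell 2.76-fold. Fasn, the fatty acid synthase gene, was not called (0.68 ± 0.19), nor were the oxysterol receptors Nr1h2 (-0.61 ± 0.084) and Nr1h3 (-0.75 ± 0.14) or Insig1 (-0.31 ± 0.100).

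Cholesterol synthesis genes were higher in 4 of 18 cases and lower in none (median 0.54), against 14.1% of all genes called higher, and Lss, the cyclase that makes lanosterol, rose 3.29-fold. Of 22 oxidative phosphorylation genes 2 were higher, a share below that of all genes: Ndufs1 of complex I (2.98-fold) and Sdha of complex II (2.16-fold). Lipid handling genes split into 3 higher and 6 lower of 22, the higher ones being Lpl, Apoe and Soat1, which esterifies cholesterol (2.04-fold), and the lower ones including the endothelial lipase Lipg (11.3-fold), the triglyceride lipase Pnpla2 (3.58-fold) and Pparg (2.30-fold).

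Stress genes moved in part. Of 14 unfolded protein response genes 5 fell and 1 rose. The falling ones belong to the branch run by Atf4 (3.10-fold): Trib3 stood at 2123, 3051 and 2576 in the Vehicle libraries and 263, 229 and 271 in the Combo libraries (log2 fold change -3.34 ± 0.21, FDR 2.52e-09), and Ddit3 (CHOP), Chac1 and the asparagine synthetase gene Asns fell 3.81-, 5.44- and 4.24-fold. The chaperone gene Hspa5 (-0.92 ± 0.035) and Xbp1 (-0.44 ± 0.083) were not called, and Edem1 rose 2.17-fold. Of 24 immediate early and heat shock genes, which also respond to tissue digestion and sorting, 9 fell and none rose (median -0.86). Over all genes 12.2% were called lower, and with library totals 3 of the 24 were called lower. Fos (-0.09 ± 0.025), Jun (-0.63 ± 0.035) and Junb (-0.35 ± 0.034) were not called, while Egr1 fell 2.05-fold and the near-identical heat shock genes Hspa1a and Hspa1b, between which reads may be split, fell 4.42- and 4.23-fold.

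Among 16 antioxidant and NADPH oxidase genes, Sod2, Slc7a11, Hmox1 and Nfe2l2 fell 3.48-, 3.03-, 2.17- and 2.17-fold, and the oxidase subunit Cybb and its regulator Rac2 rose 3.25- and 2.34-fold. These counts and those of the next 2 lists stand beside 14.1% of all genes called higher and 12.2% called lower. Of 20 TGF-beta genes 5 fell and none rose, with Thbs1, which activates the latent cytokine, at 116595, 118498 and 112321 in the Vehicle libraries and 27219, 25019 and 22898 in the Combo libraries (log2 fold change -2.21 ± 0.065, FDR 1.86e-13). The ligand gene Tgfb1 (0.86 ± 0.11) and the receptor Tgfbr2 (-0.55 ± 0.060) were not called. Matrix genes split into 4 higher and 7 lower of 17: the protease inhibitors Timp1 and Timp3 (21.3% of exon bases shared) fell 6.85- and 6.94-fold, whereas Timp2 and the macrophage elastase gene Mmp12 rose 3.37- and 2.58-fold. The medians of the JAK-STAT, Ras-ERK, TGF-beta, glycolysis, lipogenesis, lipid handling, matrix, antioxidant, incretin and monocyte-derived lists changed sign in at least 1 alternative setting, mostly with library totals, so no direction is given for them as groups. The other gene lists by role kept the sign of their median.

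**Figure D3:**
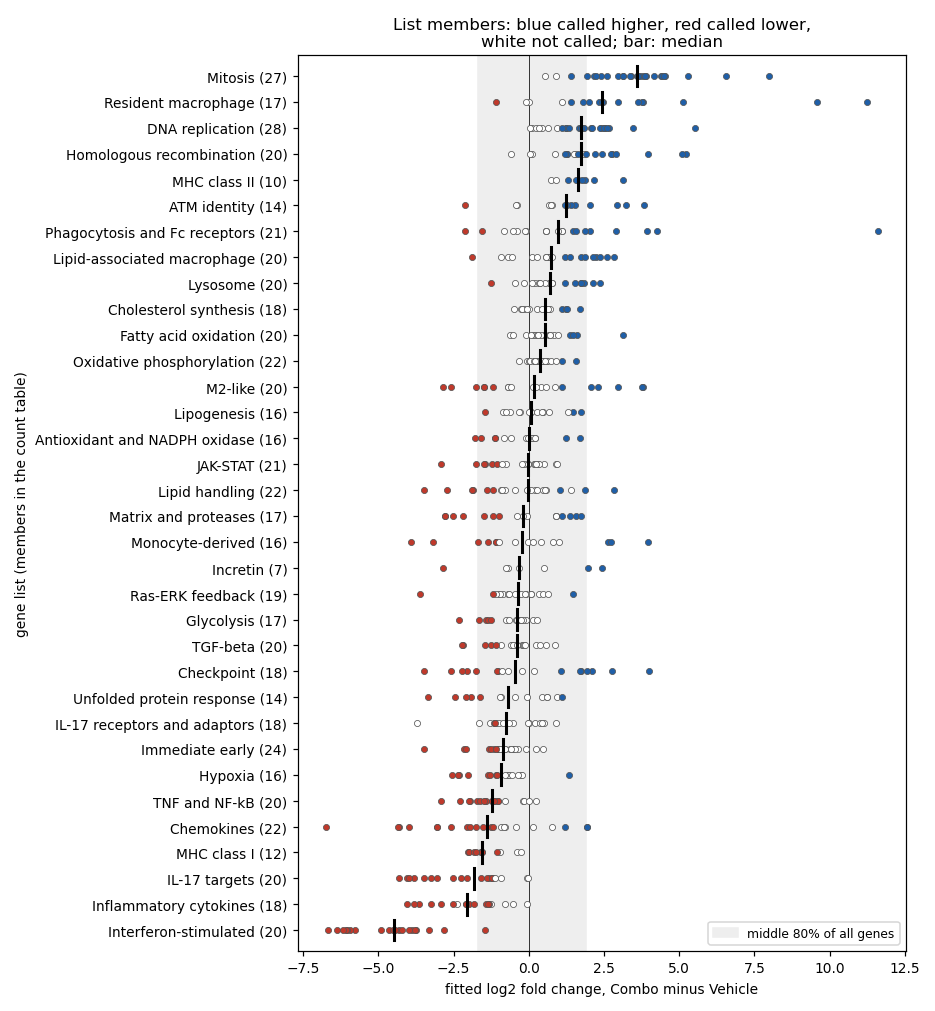
Fitted log2 fold change, Combo minus Vehicle (horizontal axis), of every measured member of each gene list (vertical axis, with the number of members in the count table). Blue points were called higher, red lower and white not called, black bars mark the list median and the grey band the middle 80% of all genes. The interferon-stimulated list has its median at -4.49 and the mitosis list at 3.60, and the oxidative phosphorylation list lies within the grey band around 0.38.

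Markers of other cell types moved in both directions. The neutrophil list had 3 genes higher, 5 lower and 6 not called of 14, beside 14.1% higher and 12.2% lower over all genes. The granule genes of early neutrophil precursors, Mpo and Elane, rose 20.6- and 12.8-fold, Mpo from 202, 377 and 474 to 6934, 7453 and 7295. Camp, the cathelicidin gene of later granules, rose 2.10-fold. Of the other genes, Cxcr2 fell 3.89-fold, Mmp8 fell 2.01-fold, and Ngp (0.12 ± 0.054) and Ltf (0.14 ± 0.069) were not called. Endothelial genes were lower in 9 of 12 cases (median -1.51). The junction gene Cldn5 stood at 36242, 34283 and 35137 in the Vehicle libraries and 2358, 2248 and 2816 in the Combo libraries (log2 fold change -3.83 ± 0.077, FDR 2.07e-15), without overlap. Pgf (chr12:85166635-85177790), placental growth factor, which binds the endothelial receptor Flt1, had the second lowest fold change among the named genes, at 42934, 43118 and 43304 in the Vehicle libraries and 249.7, 226 and 303 in the Combo libraries (log2 fold change -7.38 ± 0.18, FDR 2.54e-14). Emcn, Cdh5 and Esam fell 9.77-, 7.21- and 7.04-fold, while the receptors Kdr (-0.36 ± 0.11) and Tek (0.94 ± 0.13) were not called.

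Stromal genes were higher in 6 of 13 cases (median 1.00). The shares over all genes, 14.1% higher and 12.2% lower, apply to this list and to those that follow. Pdgfra, the receptor that marks adipose stroma and adipocyte progenitors, stood at 417, 738 and 759 in the Vehicle libraries and 7875, 7986 and 5844 in the Combo libraries (log2 fold change 3.51 ± 0.18, FDR 1.85e-10), and Col3a1 and Lum rose 3.02- and 2.99-fold. The mesothelial list held opposite parts: Msln, Upk3b and Lrrn4 rose 11.2-, 10.2- and 16.5-fold and the keratins Krt7, Krt8, Krt18 and Krt19, which other epithelia share, fell 4.02-, 4.68-, 4.15- and 3.13-fold. Among 12 NK and cytotoxic genes 6 rose, led by the receptor Ncr1 (log2 fold change 5.64 ± 0.92, FDR 1.02e-04), and 2 fell, the granzyme gene Gzmb (2.77-fold) and Ccl5. Plasma cell genes were higher in 4 of 7 cases, with the J chain gene Jchain at 3.14-fold and Mzb1 (57.2% of exon bases shared) at 10.5-fold, and B cell genes in 3 of 10, of which Fcrla lost its call without Combo replicate 1 or 3 or Vehicle replicate 2.

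In the dendritic cell list Cd209a and Siglech, the latter of plasmacytoid cells, were at 0 in Vehicle and at 48.4, 63.2 and 89.1 and 38.0, 93.9 and 60.7 in Combo, whereas Ccl22 and the actin-bundling gene Fscn1 fell 7.16- and 5.49-fold. In the mast cell, basophil and eosinophil list (3 higher and 4 lower of 13) the eosinophil genes Epx and Prg2 rose, Epx from 0 in Vehicle to 121, 171 and 211, and the mast cell tryptase Tpsab1 fell 5.13-fold. Epx was not called by DESeq2. Of 12 adipocyte genes 3 rose and 1 fell, against 14.1% higher and 12.2% lower over all genes, and Adipoq (adiponectin) was not called (0.34 ± 0.17). The leptin gene Lep was not called either (-0.09 ± 0.31). Of 7 erythroid and platelet genes Slc4a1 and Ppbp rose 4.46- and 4.58-fold, while Alas2, at 220976 ± 2212 (SD, n = 3) in Vehicle and 174184 ± 2609 in Combo, was not called. Epididymal genes, whose sums were 764848 to 770957 in WT, summed to 5.87 to 76.3 in Vehicle and 76.7 to 156 in Combo. The 5 sex-linked genes were not called between Combo and Vehicle.

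Genes of the exocrine pancreas had the highest fold changes of the comparison. All 14 acinar genes measured were higher in Combo, and all but Slc9a9 of the 12 highest named genes are made by the pancreas: Cel, Cela2a, Cpb1, Clps, Pnlip, Cela3b, Pnliprp1, Try5, Try4, Sycn and Reg2. Cel (chr2:28555795-28563403), the bile salt-activated lipase, was at 0 in all Vehicle libraries and at 6371, 6377 and 5839 in Combo (at least 1441-fold higher, FDR 1.14e-10). The elastase gene Cela2a was likewise at 0 and at 5877, 6041 and 5378 (at least 1341-fold higher, FDR 1.91e-09). The fitted median of the list was 14.34 on the log2 scale and 9.69 with the genes at 0 in Vehicle set to the floor. Summed acinar counts were 252 to 467 in Vehicle, 53038 to 53567 in Combo and at most 940.0 in the other ATM libraries, so all 3 Combo libraries held pancreatic transcripts at close levels. Leaving the marker genes of other cell types, except the dendritic cell list, out of the model gave 4409 calls in place of 4496. That removed only the marker genes, and the remaining transcripts of those cells stayed in the counts, so it cannot show their part.

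**Figure D4:**
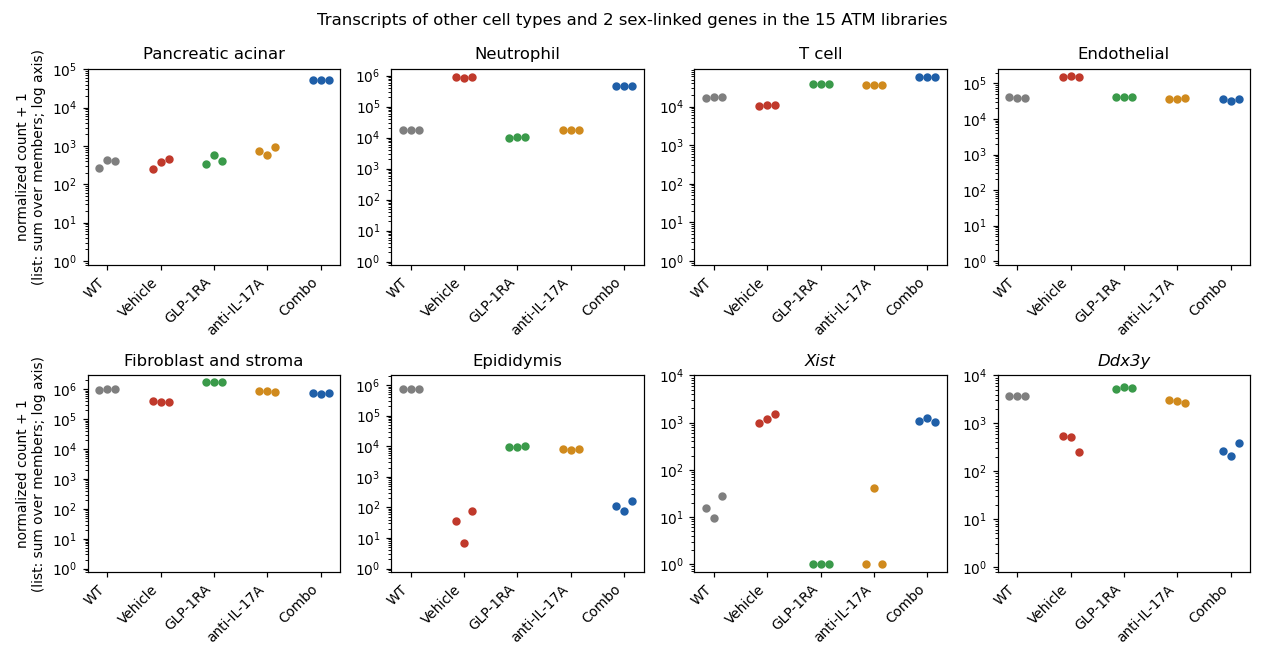
Summed normalized counts plus 1 (log axis) of the markers of 6 other tissues or cell types, and the normalized counts plus 1 of the sex-linked genes Xist and Ddx3y, in the 15 ATM libraries (1 point per library, 5 groups of 3). The pancreatic sums reach 53038 to 53567 in Combo only, the neutrophil sums are high in Vehicle and Combo only, and the epididymal sums are high in WT.

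The remaining gene of the 12 highest was Slc9a9 (chr9:94669909-95230445), which encodes a sodium-proton exchanger of endosomes. It was at 0 in all 3 Vehicle libraries and at 1526, 1560.3 and 1546 in Combo (at least 359-fold higher, FDR 3.29e-11). Its mean was 1387 in WT, 2033 in GLP1RA and 2003 in antiIL17A, so Vehicle was the group that stood apart. At the other end, Nog, which encodes the BMP antagonist noggin, stood at 856, 722 and 837 in the Vehicle libraries and 0, 0.903 and 9.48 in the Combo libraries (log2 fold change -7.85 ± 1.03, FDR 1.09e-05). Sh2d5, a signaling adaptor gene, stood at 6468, 6484 and 5578 in the Vehicle libraries and 69.1, 24.4 and 79.6 in the Combo libraries (log2 fold change -6.74 ± 0.70, FDR 7.98e-07). Both were named by a rule that admitted only genes without overlap between the groups, so their separation was set by the choice. Rnf225, Aqp2 and Sectm1a completed the 12 lowest, with fold changes of 121, 103 and 93.8 from Vehicle means of 232, 321 and 1634. Of the genes with the highest counts, Lyz2, Psap, Ctsd, C3, Col3a1 and Cd74 rose and B2m, S100a8, H2-D1, S100a9, H2-K1 and Ifitm3 fell. Ctsd shares 34.4% of its exon bases with another gene.

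Levels in the other 3 ATM groups placed these differences. The mean over the interferon-stimulated genes of log2(normalized count + 1) was highest in Vehicle. Isg15 averaged 67497 ± 2791 (SD, n = 3) in Vehicle against 2236 ± 155 in Combo, 2234 ± 159 in GLP1RA, 1309 ± 68.2 in antiIL17A and 1784 ± 116 in WT. Mrc1 averaged 263 ± 181 in Vehicle against 3626 ± 267, 4207 ± 133, 6178 ± 134 and 5075 ± 330.4 in the same order. For both genes Vehicle was the extreme group and the Combo mean lay among or nearer to the others. Mki67 gave another order, with 2277 ± 99.9 in Combo, 630.1 ± 21.9 in antiIL17A, 394 ± 60.3 in GLP1RA, 294 ± 50.6 in WT and 188 ± 76.1 in Vehicle. Il6 ran from 18427 ± 1173 in Vehicle through 13771 ± 34.0 in GLP1RA, 7613 ± 309 in WT and 5098 ± 379 in antiIL17A to 1121 ± 138 in Combo.

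**Figure D5:**
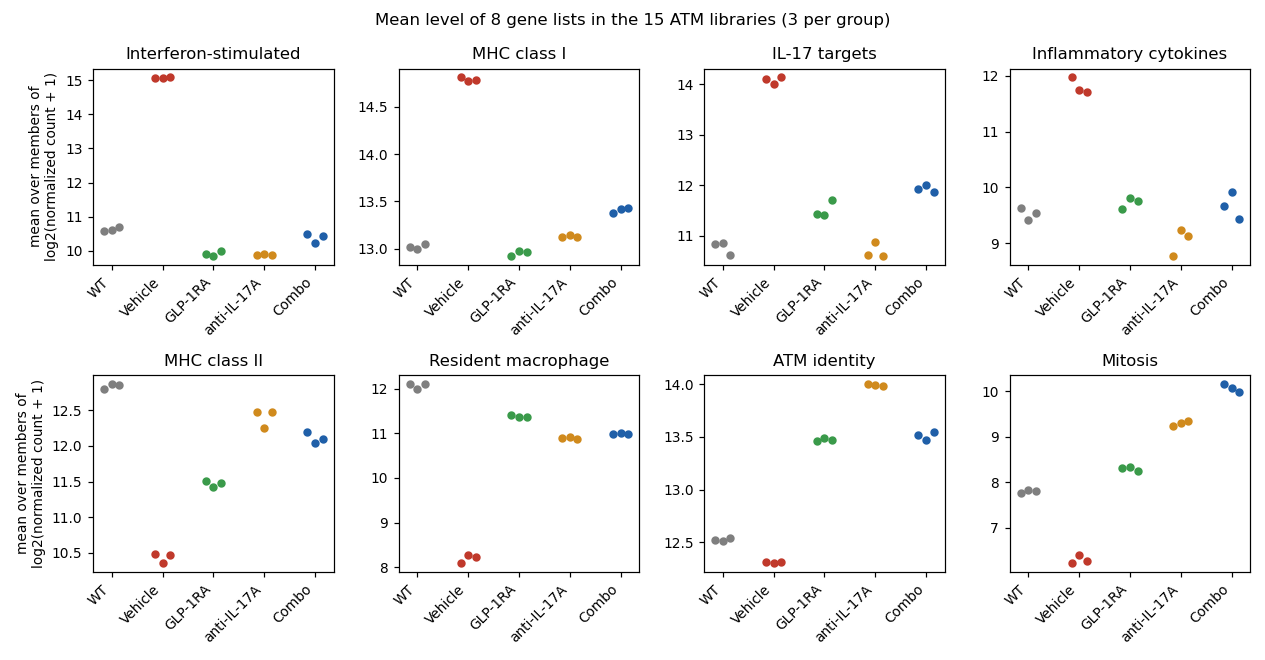
Mean over list members of log2(normalized count + 1) (vertical axis) for 8 gene lists in the 15 ATM libraries, with 1 point per library and 3 libraries in each of 5 groups. Vehicle stands above the other groups for the interferon-stimulated, MHC class I, IL-17 target and cytokine lists and below them for the resident macrophage list, and Combo is highest for mitosis.

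Combo was also tested directly against each agent alone, in contrasts that share the Combo libraries with each other and with the comparison above. Against GLP1RA 3195 genes (18.7%) were called, 917 higher (5.38%) and 2278 lower (13.4%). Against antiIL17A 2429 genes (14.2%) were called, 637 higher (3.73%) and 1792 lower (10.5%). Other tissues moved with these contrasts. Summed neutrophil counts were 466876 to 477476 in Combo, 10109 to 10601 in GLP1RA and 17615 to 18188 in antiIL17A, and all 14 neutrophil and all 14 pancreatic genes were higher in Combo in both. Of 7 erythroid and platelet genes, 4 were called higher in Combo and none lower in each contrast. Xist, transcribed from the inactive X chromosome of females, stood at 1082, 1264 and 1041 in Combo and 998, 1218 and 1533 in Vehicle but at 0, 0 and 0 in GLP1RA and 0, 40.6 and 0 in antiIL17A. The Y-linked gene Ddx3y stood at 267, 202 and 389 in Combo and 537, 515 and 247 in Vehicle and at 5156, 5731 and 5459 in GLP1RA and 3093, 2979 and 2671 in antiIL17A. Vehicle and Combo libraries held both transcripts, and GLP1RA libraries only the second. The part of sex and of other cell types in the contrasts with the single agents cannot be told apart from treatment.

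Within those contrasts, cell cycle genes were higher in Combo than in GLP1RA for 22 of 27 mitosis and 20 of 28 replication genes, and than in antiIL17A for 6 and 3. The interferon-stimulated list had 5 higher and 2 lower against GLP1RA and 4 higher and none lower against antiIL17A. Il6 was lower in Combo than in GLP1RA (log2 fold change -3.62 ± 0.086, FDR 5.06e-14) and than in antiIL17A (log2 fold change -2.18 ± 0.082, FDR 1.72e-11). Arg1 was higher than in GLP1RA (log2 fold change 4.23 ± 0.16, FDR 1.27e-11) and than in antiIL17A (log2 fold change 3.49 ± 0.15, FDR 1.32e-10). Ccr2 was higher as well (log2 fold change 1.71 ± 0.12, FDR 1.73e-08 and log2 fold change 1.14 ± 0.12, FDR 2.15e-06). IL-17 targets were called lower against GLP1RA in 8 and higher in 6 of 20 cases, and against antiIL17A in 3 and 6, the higher ones including the neutrophil products S100a8, S100a9 and Lcn2. Of the TNF and NF-kB list 3 of 20 were lower and none higher against GLP1RA, a share near the 13.4% of all genes called lower. Resident macrophage genes were called lower in 2 of 17 cases and higher in none against GLP1RA, and in 1 and 1 against antiIL17A. All list counts here are to be read against the shares of all genes. These were 5.38% higher and 13.4% lower against GLP1RA, and 3.73% higher and 10.5% lower against antiIL17A.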

How the data were processed

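RNA was polyA-selected from sorted ATMs and sequenced in paired-end, unstranded libraries. Per the labels and the study's methods, the authors mapped the reads to mm10 by STAR (2.7.2a) and counted uniquely mapped reads per GENCODE gene with featureCounts 2.0.1, without strand and with reads allowed to count for every gene they overlap. The deposited ATM table holds raw counts of 17059 genes in 15 libraries, and the marrow table was not used here. Because of the counting rule, genes that share exon bases share reads, and antisense partners cannot be told apart. Every count entered the tests, since the low-count filter (filterByExpr) removed 0 genes.

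A single edgeR 4.0.16 quasi-likelihood model (robust, TMM factors, R 4.3.3) was fitted to the 15 ATM libraries with a mean per group, and contrasts were Combo minus Vehicle, minus GLP1RA and minus antiIL17A. Tests were 2-sided, genes were called at FDR under 0.05 with an absolute log2 fold change over 1, and standard errors are the log2 fold change divided by the root of F. For a gene at 0 in a group, the fold is a lower bound against a floor of 3 counts per library, and ratios from 1 to 3 counts have exact counting intervals, which cover counting error only. The labels give 3 biological replicates per group, and replicates differed by more than counting noise. Pancreatic sums of the Combo libraries nevertheless lay between 53038 and 53567, and every Vehicle and Combo library held both Xist and Ddx3y transcripts. Whether the libraries of a group came from separate mice was not tested. The FDR values measure the spread between libraries, which is that between mice only if they did. Libraries held 24876074 to 45300263 counts.

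Gene lists and members were chosen with earlier results of these data known. Named genes were the 12 highest and 12 lowest fold changes among called, non-overlapping genes with a mean of at least 100 normalized counts, leaving out Gm and Rik models, the 6 called genes with the highest counts in each direction, up to 4 called members of each list by fold change, the members the study names, and, for a list with no call, up to 2 members with the highest counts. Other list members named in the text were chosen after their values were seen. Some genes that the rule names are not reported here. Gene positions are from GENCODE vM21 and promoters from RefSeq, both on GRCm38, the build of mm10. Counts simulated after the main fit were put through the same model, which recovered most known changes of the largest size tried. DESeq2 1.42.0, other scalings, filters, thresholds and left-out libraries were tried as alternatives.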

Additional observations from a re-analysis of the deposited data

How the results depend on the processing

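Genes called in Combo against Vehicle numbered 4496, and 4269 to 4517 when any of the 6 libraries was left out. Against GLP1RA the 3195 calls became 2950 to 2997, and against antiIL17A the 2429 calls became 2209 to 2322. Without the fold-change limit the 3 counts were 8309, 6788 and 4875, and the 388 called list genes became 584. Testing against a log2 fold change of 1 (glmTreat) gave 2591 and 1838 in the first 2 comparisons. DESeq2 gave 4819, 3437 and 2671. A replicate block by the shared replicate numbers gave 4321, 3057 and 2327 calls. Same-numbered Combo and Vehicle libraries did not deviate together (r = 0.027, -0.005 and -0.017 over 12589 genes), so the numbers were not taken as pairs. Library totals and the removal of other cell types' markers were alternatives added after the data were seen. Some alternatives did not give a value for each of the 211 named genes (157 genes had one without the markers, all but 1 with DESeq2 and all but 1 with only the 6 libraries of the 2 groups). No named gene called in the main model or in the alternative changed direction between them. Changes of sign in genes called in neither were not counted. Of the 211 genes, 11 lost and 3 gained the call with library totals, and at most 6 lost it when 1 library was left out. Genes under 100 normalized counts limit the precision most, and 1285 genes were at 0 in every Vehicle library. The cause of these changes was not tested.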
